A study of Gallus gallus with 2 samples.

Results

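Mesoderm-5 is 1 of 6 mesoderm classes that the authors named among cells of the chicken embryo. Its members were the cells whose deposited class name was mesoderm-5, which gave 284 of 7750 cells, or 3.66% (exact 95% binomial interval 3.26 to 4.11%). They made up 9.67% of the 2936 cells of these 6 classes, called mesoderm cells here (8.63 to 10.8%). The notochord, a separate class, is not counted among them. Gastrulating Gallus gallus embryos of stage HH5 on the Hamburger-Hamilton scale were dissected whole, dissociated with enzymes and run on the 10x Multiome assay, in which every cell gives both an RNA profile and a profile of accessible chromatin (ATAC). There was 1 RNA library and 1 ATAC library, and the labels give no strain, treatment or second stage. Both libraries carry the antero-posterior axis as a label, and the series title concerns position and chromatin accessibility. The question addressed was therefore how the cells of mesoderm-5 were placed along the authors' ATAC rank. The labels do not say how many embryos were pooled.

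Mesoderm forms when cells of the epiblast move inwards through the primitive streak and spread between ectoderm and endoderm. Depending on where and when they leave the streak, its cells contribute to head mesenchyme, heart, somites, kidney, body wall or blood vessels, while the notochord forms in the midline. Accessible chromatin marks DNA that a transposase can reach, and includes promoters and enhancers that are open in a given cell.

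The values used were up to 3 numbers per cell. A pair of coordinates, wnnUMAP_1 and wnnUMAP_2, places each cell on a plane by the similarity of its RNA and ATAC profiles, and has no unit. The ATAC rank orders 6681 cells of 13 classes from 1 to 6681, each rank used once, with a middle rank of 3341. The other 1069 cells, of 3 classes, had no rank. Neither the ranked quantity nor the anterior end of the rank was stated in the labels or headers, and ranks are called low or high. The direction of an embedding axis has no meaning of its own. All 284 mesoderm-5 cells had a rank, and no barcode was repeated. Gene values were not analysed here, so the class name could not be checked against marker genes and no gene is named. With 1 library of each kind and no depth per cell, differences were not tested. Intervals cover the sampling of cells within these libraries only. By its name, the rank draws on the ATAC profiles of these cells, which the embedding also uses. Relations between the rank and the embedding are therefore given as descriptions, not as independent evidence.

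Mesoderm-5 cells lay mostly in the lower part of the rank. Their ranks ran from 434 to 5526, with a median of 2559.5 (95% binomial interval of the median 2399 to 2669) and quartiles of 1887.75 and 3087.5. The central 80% of the cells lay between 1371 and 3566. All ranked cells were split into 10 nearly equal parts, of 668 or 669 cells, with bin 1 the lowest. Bins 3, 4 and 5 held 55, 79 and 82 mesoderm-5 cells. Bins 1 and 2 held 8 and 19 cells, and bin 6 held 31. Bins 7, 8 and 9 held 6, 3 and 1 cells. Bin 10 held 0 of the 284 cells, a count that permits a true share of up to 1.06%. The class was therefore centred on ranks of about 2006 to 3341, the span of bins 4 and 5.

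Among the classes named mesoderm, which leave out the notochord, most cells with low ranks carried the mesoderm-5 name. In the lowest 4 bins there were 210 mesoderm cells, of which 161 were mesoderm-5 (76.7%, interval 70.4 to 82.2%). The others were 27 mesoderm-3 cells, 20 mesoderm-2 cells and 2 mesoderm-6 cells. In bin 1, the 8 cells of the classes named mesoderm were all mesoderm-5. The 114 notochord cells, not counted here, had a 10th percentile of 595, inside bin 1 (ranks 1 to 669). Their median of 2417.5 lay in bin 4. The share of mesoderm-5 among mesoderm cells fell from bin 4 onwards. Bin 4 had 72.5% (interval 63.1 to 80.6%). Bin 5 had 48.5% (interval 40.8 to 56.3%), and bin 6 had 7.67% (interval 5.27 to 10.7%). Because ranks are relative, these bins depend on how many cells of each class were captured.

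In the embedding, mesoderm-5 formed the tip of the mesoderm at high wnnUMAP_1. It extended from -0.23 to 2.24 on wnnUMAP_1 (median 1.37) and from 1.36 to 3.74 on wnnUMAP_2 (median 2.75). Of its 284 cells, 205 (72.2%) had all of their 15 nearest cells in mesoderm-5. Over all cells, mesoderm-5 supplied 92.5% of the nearest cells, mesoderm-2 5.09% and mesoderm-6 1.13%. A further 6 classes supplied 1.24% together. The notochord was not among them.

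**Figure D1:**
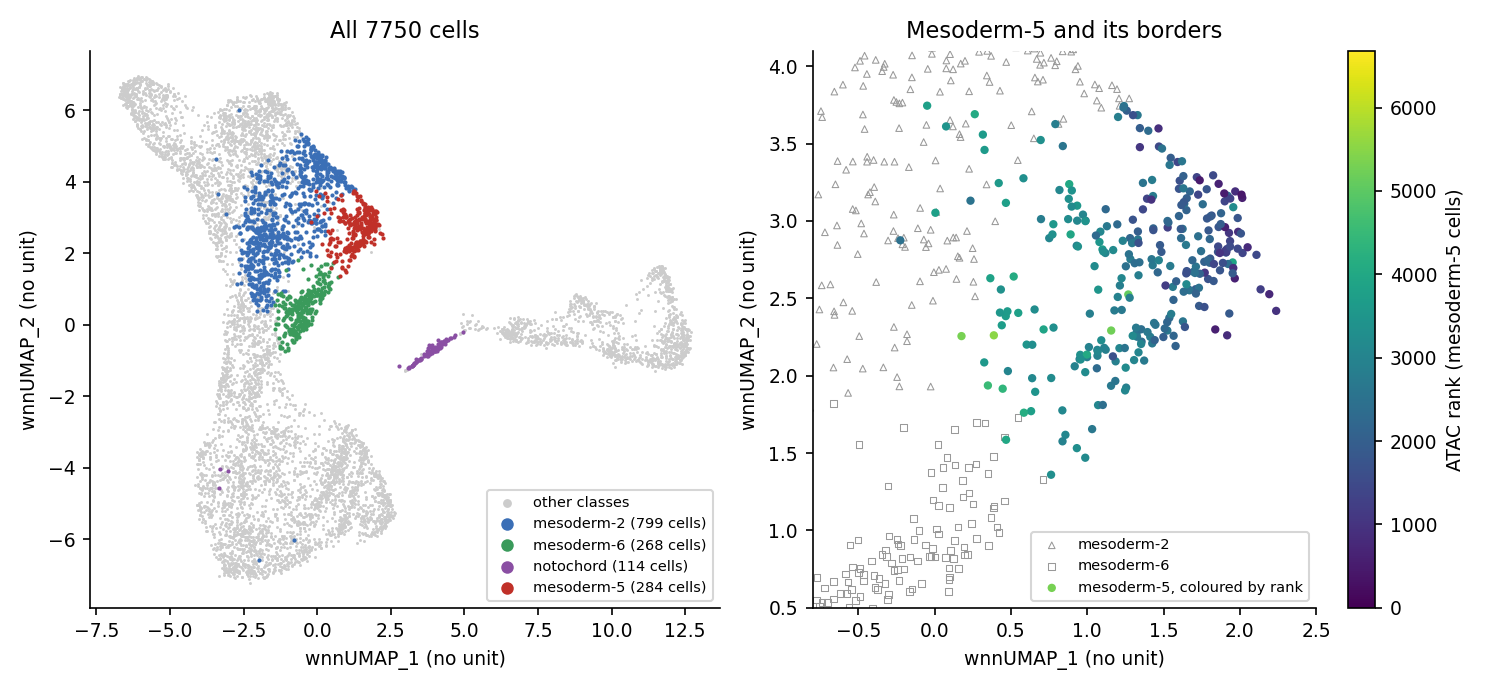
Left, the 7750 cells on wnnUMAP_1 (x axis) and wnnUMAP_2 (y axis), both without unit, with 4 classes coloured. Right, an enlarged part with mesoderm-5 cells coloured by ATAC rank and mesoderm-2 and mesoderm-6 cells as open symbols; the colours pass from higher ranks on the left to lower ranks at the right tip, and the notochord lies apart.

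The rank of mesoderm-5 cells fell steadily towards the tip. Sorted by wnnUMAP_1, the cells were split into 5 bins of 56 or 57, with bin 1 on the side of the other mesoderm classes. In bin 1 the median rank was 3449 (quartiles 3186 and 3777), with cells from 2462 to 5526. In bin 2 the median was 2948 (quartiles 2707 and 3188). These quartile ranges barely overlapped. The median was 2443 in bin 3 (quartiles 1991 and 2716) and 2180 in bin 4 (quartiles 1890 and 2445), and the ranges of these bins overlapped widely. In bin 5, at the tip, the median was 1490 (quartiles 992.75 and 1836), with cells from 434 to 3884. The intervals of the median over cells were 3290 to 3639 in bin 1 and 1371 to 1760 in bin 5, and cover the sampling of cells only. Spearman's rank correlation between rank and wnnUMAP_1 was -0.82 across the 284 cells.

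The middle rank was crossed close to the inner edge. In bin 1, 26 of 57 cells (45.6%) lay below rank 3341, against 48 of 57 (84.2%) in bin 2 and 56 of 57 (98.2%) in bin 3. In bins 4 and 5 the counts were 57 of 57 and 55 of 56. The spread also differed along the axis. The interquartile range was 591, 481, 725, 555 and 843.25 in bins 1 to 5, with no steady order.

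The second coordinate carried less of the gradient. The Spearman correlation between rank and wnnUMAP_2 was -0.31 over the same cells, and -0.23 after adjustment for wnnUMAP_1. The Spearman correlation with wnnUMAP_1 was nearly the same after adjustment for wnnUMAP_2, at -0.81. In 5 bins along wnnUMAP_2 the median rank was 3049 in bin 1 (quartiles 2805 and 3265), 2590 in bin 2 and 2223 in bin 3. It then changed little, at 2280 in bin 4 and 2253 in bin 5 (quartiles 1422.75 and 2782.5). With 5 bins, the fall along wnnUMAP_2 thus took place over the lower 3 bins. Cells of bin 1 on this axis also lay at low wnnUMAP_1, with a median of 1.06, against 1.43 in bin 5. When wnnUMAP_2 was cut into 10 bins, bins 7 to 10 showed no steady order, with medians of 2210, 2343, 1792.5 and 2567.5.

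**Figure D2:**
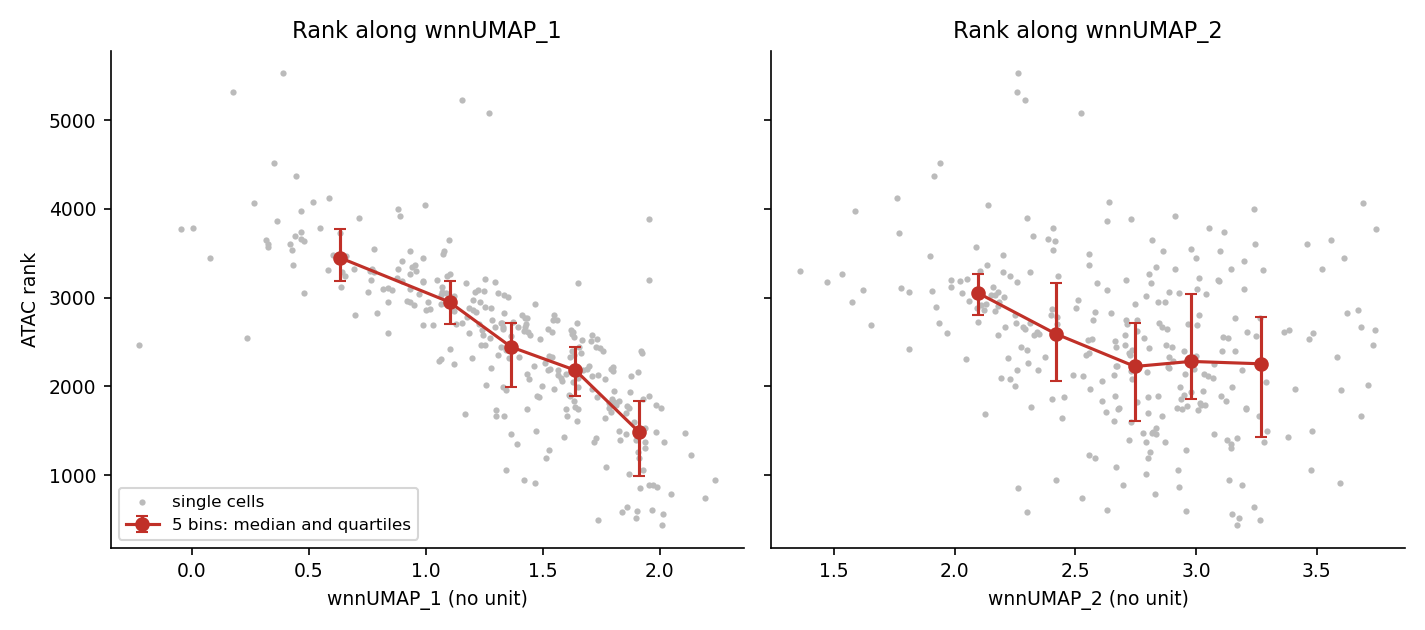
ATAC rank (y axis) of the 284 mesoderm-5 cells against wnnUMAP_1 (left) and wnnUMAP_2 (right), both without unit. Grey points are cells, and red points with bars are medians and quartiles of 5 bins of 56 or 57 cells. Medians fell from 3449 to 1490 along wnnUMAP_1. With these 5 bins they changed little after bin 3 along wnnUMAP_2.

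A plane fitted to the rank over both coordinates accounted for 62.2% of its variance, against 59.6% for wnnUMAP_1 alone and 9.14% for wnnUMAP_2 alone. Adding squares and the product of the coordinates raised this to 64.7%. On the plane the rank fell by 1411 ranks per embedding unit, in a direction 12.5 degrees from the wnnUMAP_1 axis. Cells on the 2 sides of the median wnnUMAP_2 had similar ranks in most bins of wnnUMAP_1. In bin 1 the median was 3537 on the lower side (31 cells) and 3323.5 on the upper side (26 cells). In bin 5 it was 1592 (17 cells) and 1479 (39 cells). Bin 3 showed the widest gap of the 5, with a median of 2666 (quartiles 2350 and 2820) on the lower side and 2004.5 (quartiles 1666.5 and 2577.75) on the upper side.

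The gradient in mesoderm-5 was compared with the same fit in the other ranked classes. The plane accounted for 62.2% of the rank variance in mesoderm-5, 59.3% in endoderm, 55.7% in the primitive streak and 54.3% in mesoderm-2. It accounted for 51.4% in nonneural ectoderm-1, 48.0% in nonneural ectoderm-2, 45.2% in neural ectoderm-2 and 44.1% in mesoderm-3. The lower values were 26.1% in mesoderm-6, 11.2% in neural ectoderm-1, 7.25% in the notochord, 5.01% in mesoderm-1 and 2.17% in mesoderm-4. The direction of fall on the plane in mesoderm-2 was 8.17 degrees from wnnUMAP_1, against 12.5 degrees in mesoderm-5, with a slope of 784 ranks per unit against 1411. The Spearman correlations with wnnUMAP_1 and wnnUMAP_2 were less alike, at -0.71 and -0.56 in mesoderm-2 against -0.82 and -0.31 in mesoderm-5. The mesoderm-2 fit also took in stray cells, as far as 8.40 units from mesoderm-5. In mesoderm-6 the direction was -28.7 degrees and the slope 1420. The classes differ in extent and cell number, and these differences were not tested.

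Neighbouring mesoderm-5 cells had similar ranks. The rank of a cell correlated with the median rank of its 15 nearest mesoderm-5 cells (Spearman correlation 0.82), and the median absolute difference between them was 304 ranks. Against the class median instead, the median absolute difference was 601. Against the fitted plane it was 295, so this similarity largely restates the gradient. A cell's difference from the plane correlated weakly with the median difference of its nearest cells (Spearman correlation 0.24). For 206 of 284 cells the difference from the nearest cells was at most 500 ranks. Some cells departed far from their surroundings. There were 8 cells more than 1000 ranks above the median of their nearest cells and 12 more than 1000 below. At a limit of 1500 ranks, 6 cells lay above and 1 below.

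The lowest ranks lay towards the tip, and most but not all of the highest ranks lay at the inner end. The lowest 5 ranks were 434, 493, 521, 558 and 585. Of these cells, 4 were in bin 5 of wnnUMAP_1 and 1 in bin 4. The highest 5 ranks were 5526, 5316, 5228, 5078 and 4521. The cells at 5526, 5316 and 4521 were in bin 1, near the other mesoderm classes. The cell at 5228 was in bin 2 and that at 5078 in bin 3, where the nearest mesoderm-5 cells had medians of 2850 and 2752. These cells were picked for their values.

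Mesoderm-5 met mesoderm-2 along its inner and upper edge. As a group, the border cells ranked high for mesoderm-5 and low for mesoderm-2. The 9 mesoderm-5 border cells outside bin 1 of wnnUMAP_1 instead had a median of 2326, below that of the whole class. The border was made of the cells with at least 1 of their 15 nearest cells in the other class. On the mesoderm-5 side, 34 cells had ranks from 905 to 5526, with a median of 3493 and quartiles of 2610 and 3729.5. The other 250 cells had a median of 2441 and quartiles of 1828 and 2998.25. On the mesoderm-2 side, the median of 73 cells was 3590, with an upper quartile of 4306, and that of the other 726 cells was 5041, with a lower quartile of 4046.75. Away from the border, mesoderm-2 was higher than mesoderm-5 in 96.8% of cell pairs. At the border this was 62.6%, where 50% would mean no difference in level. With a stricter border, of cells with at least 3 of 15 nearest in the other class, it was 44.3%, with medians of 3320 in 25 mesoderm-5 cells and 3175.5 in 26 mesoderm-2 cells. Which side ranked higher at the border thus depended on its definition. The quartile ranges of both sides of the border overlapped, and those of the cells away from it were disjoint.

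Cells that faced each other across this border differed little in rank at the median. There were 14 pairs in which a mesoderm-5 cell and a mesoderm-2 cell were each other's nearest cell of the other class, at a median distance of 0.083 embedding units. The mesoderm-2 cell minus the mesoderm-5 cell had a median of -47 ranks (quartiles -189.5 and 117), and the mesoderm-2 cell was higher in 5 of 14 pairs. Single pairs ranged from -789 to 2024. Each of the 34 border cells was also compared with the median of the mesoderm-2 cells among its nearest 15. The mesoderm-2 value was higher for 18 of 34 cells. Taken over all 34 cells, the mesoderm-2 value less the cell's own rank was 57.5 at the median. The quartiles of this difference, -376.6 and 252.5, were of opposite sign. The mesoderm-2 value correlated with the cell's own rank (Spearman correlation 0.65).

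The rank also changed along the border with mesoderm-2. Of the 34 border cells, 25 lay in bin 1 of wnnUMAP_1, 3 in bin 2 and 6 in bin 3. Their median ranks were 3639, 2637 and 1989.5, respectively. Mesoderm-2 border cells level with bins 1 and 2 had medians of 3798 (63 cells) and 2609 (9 cells). The 1 cell level with bin 3 had rank 1847. Positions within these broad bins were not matched. Over the whole border, the median wnnUMAP_1 was 0.11 on the mesoderm-2 side and 0.47 on the mesoderm-5 side. The Spearman correlation between rank and wnnUMAP_1 was -0.61 on the mesoderm-5 side and -0.79 on the mesoderm-2 side. Rank at this border therefore followed wnnUMAP_1 in both classes. The lowest rank of the 73 mesoderm-2 border cells was 1445, which lies under the lower quartile of mesoderm-5.

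The border with mesoderm-6 was shorter and lay at the lower inner edge. It held 14 mesoderm-5 cells, all at or below the median wnnUMAP_2 of the class, and 13 of them were in bin 1 of wnnUMAP_1. No cell bordered both mesoderm-2 and mesoderm-6. Ranks of the 14 cells ran from 2949 to 4521, with a median of 3284.5 and quartiles of 3110.5 and 3917.25. For the other 270 cells the median was 2490, with quartiles of 1853.25 and 3029. The 9 mesoderm-6 cells on the other side had ranks from 3391 to 4543, with a median of 3744 and quartiles of 3600 and 4055. For the other 259 the median was 4683, with quartiles of 4147 and 5287. Away from the border, mesoderm-6 was higher in 97.4% of cell pairs. At the border it was higher in 73.0% of pairs, but the order turned with a narrower border. It was 36.1% with 5 nearest cells, with medians of 3855.5 in mesoderm-5 and 3661.5 in mesoderm-6 (6 cells each). It was 31.4% with at least 3 of 15 nearest in the other class, with medians of 3979 in 7 mesoderm-5 cells and 3600 in 5 mesoderm-6 cells. With 15 nearest cells, the quartile ranges of the border cells overlapped, and those away from the border were disjoint. There were 3 mutual nearest pairs, with the mesoderm-6 cell higher in 1 of them, which is too few to describe a step.

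The order of the 2 borders was not settled by the medians. Mesoderm-5 cells at the mesoderm-2 border ranked above those at the mesoderm-6 border in 42.9% of pairs, although their median was the higher. With 5 nearest cells this was 25.4%, and with at least 3 of 15 it was 23.4%, with the mesoderm-6 border then at the higher median (3979 against 3320). Within bin 1 of wnnUMAP_1, cells at the mesoderm-2 border had a median of 3639 (25 cells, interval of the median 3449 to 3777) and those at the mesoderm-6 border had 3304 (13 cells, 3089 to 4125). The 19 cells of bin 1 at neither border had a median of 3285 (3097 to 3479). The intervals of the 2 border groups overlapped, but they cover the sampling of cells only and do not show equal levels.

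Ranks fell with distance from both borders inside mesoderm-5. Its cells were divided into 4 groups of 71 by distance to the nearest mesoderm-2 cell. The medians were 3290 in the nearest group, 2540 and 2576 in the middle groups, and 2080 in the farthest (quartiles 1502.5 and 2478.5). By distance to the nearest mesoderm-6 cell the medians were 3114, 2698, 2132 and 1791. The Spearman correlation with distance was -0.47 for mesoderm-2 and -0.62 for mesoderm-6, both smaller in size than the -0.82 with wnnUMAP_1. For the other mesoderm classes it was -0.39 (mesoderm-1), -0.74 (mesoderm-3) and -0.82 (mesoderm-4). Such a fall was therefore not particular to these 2 borders. Across the border the 2 neighbours differed. In 4 groups of mesoderm-2 cells by distance to mesoderm-5, medians were 3718.5 nearest, then 4294, 5278.5 and 6061. In mesoderm-6 they were 4299 nearest, then 4962, 4438 and 4758, and the Spearman correlation with distance was 0.14, against 0.65 in mesoderm-2. Medians thus rose with every step of distance in mesoderm-2, whereas in mesoderm-6 they rose in the first step and then showed no steady order. Distance from mesoderm-2 was not the same as position towards the tip, since of the 56 cells of bin 5 of wnnUMAP_1, 30 were in the farthest group, 21 in the next and 5 in the one after.

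**Figure D3:**
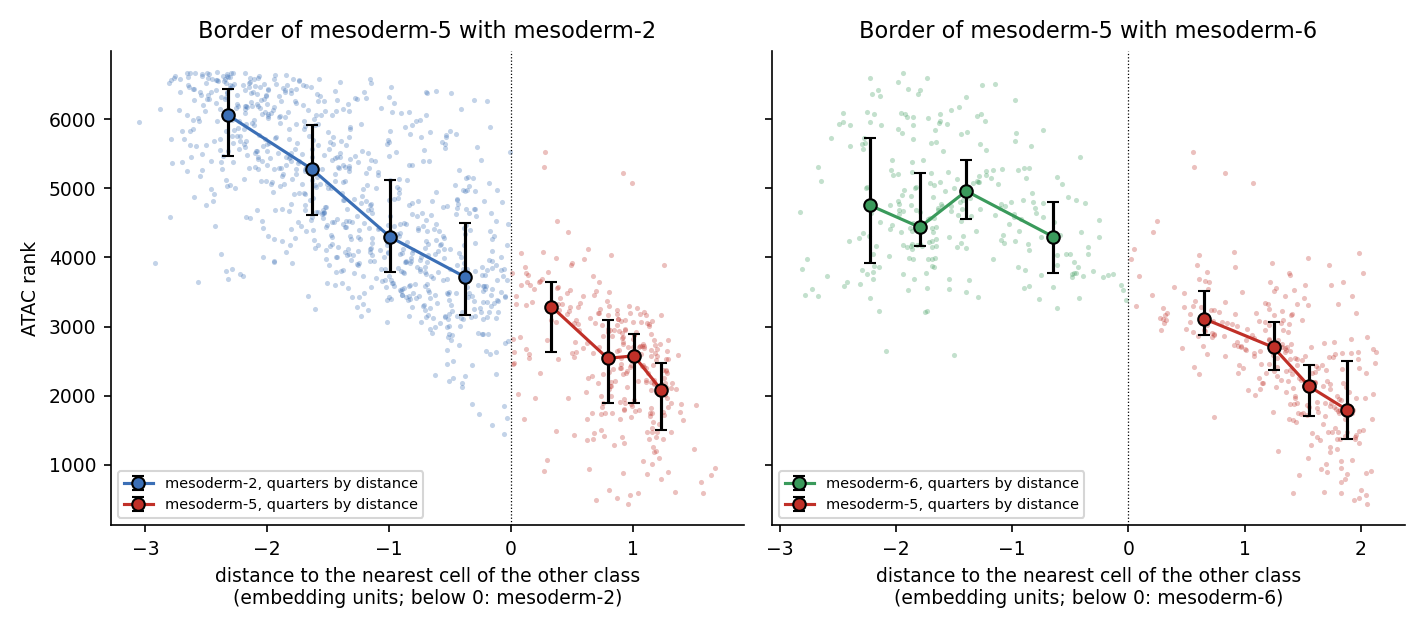
ATAC rank (y axis) against the embedding distance to the nearest cell of the other class (x axis), for the mesoderm-2 border (left) and the mesoderm-6 border (right); mesoderm-5 lies right of 0, its neighbour left. Faint points are cells (the few neighbour cells beyond 3.2 units are not drawn) and large points with bars are medians and quartiles of 4 distance groups; mesoderm-2 medians climb to 6061, and mesoderm-6 medians stay between 4299 and 4962.

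Mesoderm-5 and the notochord, the axial mesoderm under the neural plate, had similar levels of rank. The 114 notochord cells had a median of 2417.5 (interval over cells 2082 to 2593), 142 ranks below that of mesoderm-5. A mesoderm-5 cell ranked higher in 56.7% of pairs. Against nonneural ectoderm-1 the share was 57.2%, so a level this close was not particular to the notochord. Without the 79 mesoderm-5 cells that bordered another class, the share against the notochord was 51.1%. Of the mesoderm-5 cells, 159 of 284 (56.0%) lay within the notochord quartiles of 1444.75 and 2939.25, 90 lay above and 35 below. The distributions differed most at the low end of the percentiles compared. The 10th percentile was 1371 in mesoderm-5 and 595 in the notochord, whereas the 75th percentiles were 3087.5 and 2939.25. The SD over cells was 898 in mesoderm-5 and 1196 in the notochord.

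The match in level depended on the position within mesoderm-5. Cells of bin 1 of wnnUMAP_1 ranked above notochord cells in 87.1% of pairs. The value was 73.3% in bin 2, 50.8% in bin 3, 43.6% in bin 4 and 28.0% in bin 5. Cells at the tip therefore ranked below the typical notochord cell and cells at the inner edge above it. The classes were not neighbours in the embedding. The nearest notochord cell was at least 3.18 embedding units from any mesoderm-5 cell, which exceeds the 2.46 units that mesoderm-5 spans on wnnUMAP_1.

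The quartile range of mesoderm-5 overlapped those of 3 of the 4 ectoderm classes. Over the 2481 ectoderm cells, mesoderm-5 was higher in 72.0% of cell pairs. Against neural ectoderm-2 it was higher in 63.5% of pairs, with a median 484 ranks higher. Against nonneural ectoderm-2 it was higher in 64.3%, with a median 457.5 ranks higher. Against nonneural ectoderm-1 it was higher in 57.2%, with a median 284.5 ranks higher. The interval of the nonneural ectoderm-1 median over cells was 2062 to 2418. Of mesoderm-5 cells, 59.9% lay within the quartiles of nonneural ectoderm-1, 43.0% within those of neural ectoderm-2 and 34.9% within those of nonneural ectoderm-2. Neural ectoderm-1 stood lower, with 7.39% of mesoderm-5 cells within its quartiles and a median difference of 1820.5.

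Along mesoderm-5 the relation to ectoderm turned over. Cells of bin 1 ranked above cells of neural ectoderm-2, nonneural ectoderm-2 and nonneural ectoderm-1 in 93.1%, 93.8% and 87.6% of pairs. In bin 3 the values were 59.5%, 61.4% and 51.5%. In bin 5 they were 29.0%, 27.5% and 28.2%, so cells at the tip ranked below the typical cell of each of these 3 classes. Against neural ectoderm-1 even the tip was higher, in 78.6% of pairs. Against the pooled other 5 mesoderm classes (2652 cells), mesoderm-5 was lower at both ends, with 10.7% of pairs higher in bin 1 and 0.706% in bin 5. Bin 1 came closest to mesoderm-3, where its cells were higher in 39.7% of pairs.

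**Figure D4:**
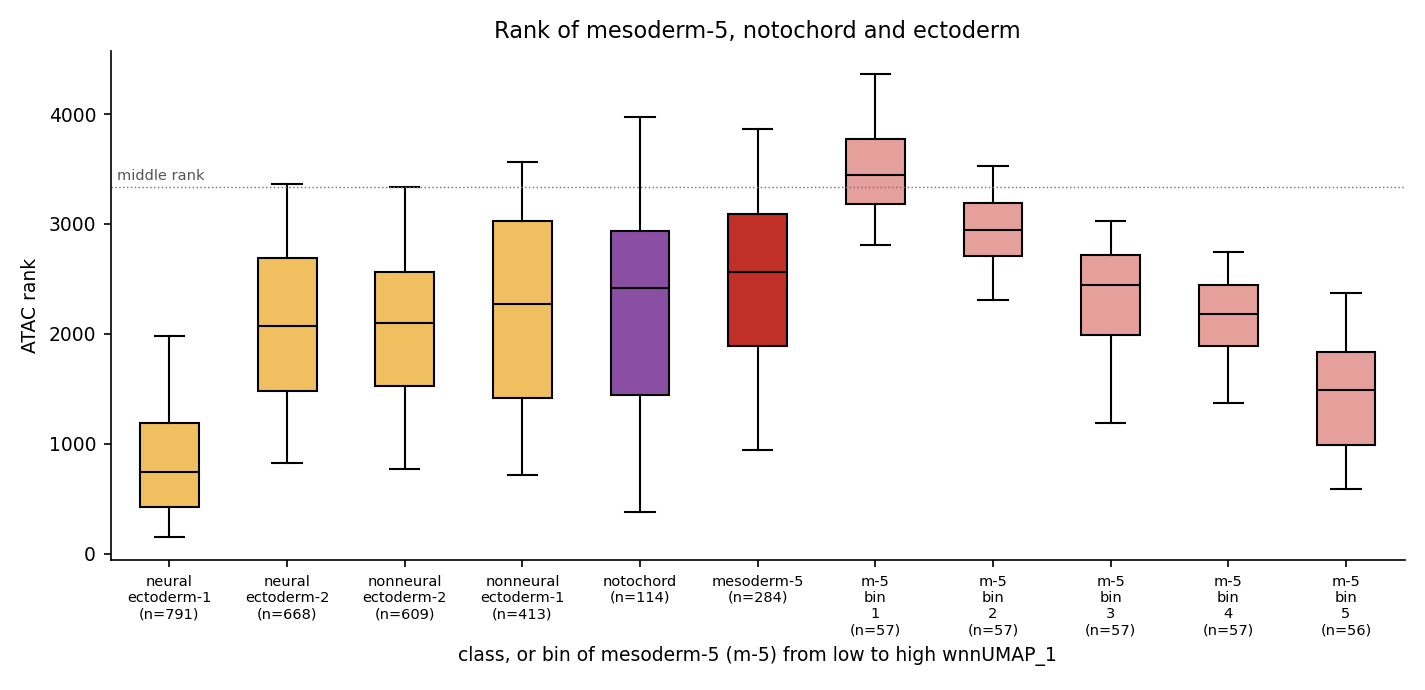
ATAC rank (y axis) of the 4 ectoderm classes, the notochord, mesoderm-5 and its 5 bins along wnnUMAP_1, with the number of cells under each. Boxes give quartiles and median, whiskers the 5th and 95th percentiles over cells; mesoderm-5 as a whole sits beside the notochord, while its bins run from a median of 3449 to one of 1490.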

How the data were processed

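Per the file headers, the deposited table gives each cell a class name and a pair of weighted nearest neighbour UMAP coordinates. An ATAC rank is given for 6681 of the 7750 cells. The coordinates and the rank were treated as the authors' scores without unit. The build galGal6 and the tools Signac 1.8.0, Seurat 4.3.0 and Cell Ranger ARC 2.0.0 are listed in the submitters' processing notes. Their settings, the cell filters, doublet treatment and the naming of classes were not stated there, and no doublet caller was run. Gene counts were not analysed here, and the depth per cell is unknown.

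Nearest cells were the 15 closest in Euclidean distance, over all cells, or within mesoderm-5 for local similarity. Shares carry exact (Clopper-Pearson) 95% intervals, and medians carry binomial order-statistic intervals. The limit for a count of 0 is 3 counts of the total. In percentages of pairs, every cell of one class was paired with every cell of the other. Pooled ectoderm joins 4 classes. Cells are not replicates, and the comparisons carry no tests or p-values. Alternatives were other numbers of nearest cells (5 and 50), a stricter border, means, Pearson correlation, other bin numbers, and leaving out border, stray or extreme cells. Functions were checked on simulated data. Members and comparisons were chosen with earlier results of these data known. The division by the median wnnUMAP_2, the comparisons along the borders and the extreme cells were added after seeing the table. Classes were named by rule if found among the nearest cells, and genes not at all. Python 3.11.15, pandas 2.3.3, NumPy 2.4.6, SciPy 1.17.1 and matplotlib 3.10.9 were used.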

Additional observations from a re-analysis of the deposited data

How the results depend on the processing

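Of 73 recomputed values, 55 stayed within the binomial interval of the reported value, or within 0.1 for correlations, 5 points for percentages and 1.5 times for counts, and 3 changed direction. The interval is wide for small groups, so staying within it says less there. For the 14 mesoderm-5 cells at the mesoderm-6 border it was 3089 to 4125. Medians of 3855.5 and 3979 with narrower borders lay within it, against 3284.5 as reported. Without the 79 mesoderm-5 cells with any other class among their 15 nearest, the median rank was 2350 (an alternative added after seeing the data). Mesoderm-5 then ranked higher than notochord, nonneural ectoderm-1 and nonneural ectoderm-2 cells in 51.1%, 52.1% and 59.3% of pairs. Cells at the borders with mesoderm-2 and mesoderm-6, which were 48 of the 79, had higher medians than the rest of the class. The 79 also held 19 cells near 1 nonneural ectoderm-2 cell that lay inside mesoderm-5, with a median of 2930. Leaving out the 79 thus removed more than cells at edges between classes. With 10 bins along wnnUMAP_1 the first and last medians differed by 2352.5 ranks, against 1959 with 5. Without cells with fewer than 8 of 15 nearest in mesoderm-5, the Spearman correlation with wnnUMAP_2 was -0.41; the cause was not tested. The number of mesoderm-5 cells at the mesoderm-2 border was 21 with 5 nearest cells and 57 with 50, and at the mesoderm-6 border 6 and 23, or 7 when at least 3 of 15 were required. That requirement gave mesoderm-2 border cells a median of 3175.5 and their mesoderm-5 neighbours one of 3320. The 3 reversals concern which side of a border was higher. Mesoderm-2 was higher in 44.3% of border pairs when at least 3 of 15 were required (62.6% as reported, 68.8% with 50 nearest cells), and mesoderm-6 in 31.4%, or 36.1% with 5 nearest cells (73.0% as reported). Mesoderm-5 cells at the mesoderm-2 border ranked above those at the mesoderm-6 border in 23.4% and 25.4% of pairs, respectively. These narrower borders hold fewer cells. No paired analysis was possible because the comparisons were between classes of cells within 1 library of each kind, with no replicate samples. Depth per cell is unknown, and with 1 library of each kind the spread between embryos cannot be given.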

Other observations

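A total of 8 cells of other classes lay among mesoderm-5, with at least 8 of their 15 nearest cells in it. They were 3 mesoderm-2 cells and 1 cell each of mesoderm-3, mesoderm-6, endoderm, neural ectoderm-1 and nonneural ectoderm-2. The nonneural ectoderm-2 cell had rank 3134, near the median of 2946 of the mesoderm-5 cells around it and above its own class median of 2102. The endoderm cell had rank 1619, between the surrounding median of 2084 and its class median of 564.5. The neural ectoderm-1 cell, close to the tip, had rank 615, below the surrounding median of 1475 and nearer to its class median of 739. The mesoderm-3 cell had rank 2334, below both the surrounding 3537 and its class median of 3857. The mesoderm-6 cell had rank 3522, against 3463 around it and 4653.5 in its class. The 3 mesoderm-2 cells had ranks of 3127, 3431 and 3952, with surrounding medians of 3320, 3316 and 3676.5, all under their class median of 4854. These are single cells, doublets were not assessed, and their part in these positions was not tested.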
